A study of Mus musculus with 5 samples.

Results

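The glycolysis and hypoxia response genes are a list of 43 mouse genes for glucose uptake, the steps from glucose to lactate, oxygen sensing and the targets of the hypoxia-inducible factors (HIFs). They were followed across 5 Affymetrix GeneChip Mouse Gene 1.0 ST arrays, 1 array for each cell population. A gene was measured where a probe set named that gene and no other, and the brightest such probe set was used. This held for 40 of the 43 genes, out of 19938 genes named in this way on the array. The comparisons ask how expression in cells regrown from teratomas differs from that of the injected ESCs, and whether it depends on the host strain and on added fibroblasts. Gpi1, Gapdh and Eno1 had no probe set of their own. Gapdh was listed on 25 probe sets, each shared with at least 3 other symbols, and was not reported.

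Parental embryonic stem cells (ESCs) were the B6CBAF1 line, derived from blastocysts of C57BL/6 females and CBA/ca males, before any injection. Homologous ESC-like cells were grown out of teratoma tissue that these ESCs formed under the skin of B6CBAF1 mice, and heterologous ESC-like cells out of a teratoma formed in B6D2F1 mice. Co-injection ESC-like cells came from teratomas of B6CBAF1 ESCs injected together with a smaller number of B6D2F1 embryonic fibroblasts into B6D2F1 mice, and were given as batch 1 and batch 2 (n = 2). What a batch stands for is not stated in the labels.
All of the cells, parental ESCs included, were cultured on mitotically inactivated ICR fibroblasts in medium with fetal bovine serum and leukemia inhibitory factor (LIF). The labels give all cells the same LIF concentration, whereas the methods give the cells from teratomas more LIF than the ESCs, and the part of LIF in the comparisons was not tested. Heterologous injection without fibroblasts gave a single teratoma, so its array stands for 1 graft. Since ESCs injected alone are represented by 1 array per host strain, the strain of the host and the individual graft cannot be told apart.

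In glycolysis, glucose enters through facilitative transporters and is trapped by hexokinase, committed by phosphofructokinase, split by aldolase and oxidized to pyruvate, which lactate dehydrogenase turns into lactate. HIF1A and EPAS1 (HIF2A) are transcription factor subunits that the prolyl hydroxylases EGLN1 and EGLN3 mark for destruction when oxygen is present. When oxygen is short they persist and bind a short core sequence, the hypoxia response element, near genes of glycolysis, vessel growth, mitophagy and the hydroxylases themselves. Mouse ESCs are known for a high rate of glycolysis even in oxygen.

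The 6 list genes furthest from parental ESCs, Ddit4, Eno2, Egln3, Pdk1, Aldoc and Bnip3, were all over 2-fold higher after homologous injection. Their promoters are printed to show whether they share the core that HIFs bind. The sequences are the 250 bases before the start of the RefSeq transcript (GRCm38.p6), written 5′ to 3′ on the strand of the gene. Capitals mark ACGTG or GCGTG read on either strand, which appear as CACGT or CACGC when the match lies on the other strand. For Pdk1 and Aldoc, which have a pair of annotated starts each, the more upstream start is shown.
Ddit4, chr10:59951771-59952020, minus strand: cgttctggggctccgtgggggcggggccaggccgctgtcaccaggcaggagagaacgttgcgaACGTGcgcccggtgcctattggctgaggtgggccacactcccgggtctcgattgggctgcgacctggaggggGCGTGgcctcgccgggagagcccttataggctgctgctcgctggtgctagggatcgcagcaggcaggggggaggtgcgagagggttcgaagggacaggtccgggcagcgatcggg
Eno2, chr6:124769674-124769923, minus strand: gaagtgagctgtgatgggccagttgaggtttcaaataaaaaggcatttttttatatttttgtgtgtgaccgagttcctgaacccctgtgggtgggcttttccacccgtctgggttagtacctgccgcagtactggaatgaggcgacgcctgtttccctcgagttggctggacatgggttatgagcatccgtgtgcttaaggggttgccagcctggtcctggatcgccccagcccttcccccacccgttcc
Egln3, chr12:54203875-54204124, minus strand: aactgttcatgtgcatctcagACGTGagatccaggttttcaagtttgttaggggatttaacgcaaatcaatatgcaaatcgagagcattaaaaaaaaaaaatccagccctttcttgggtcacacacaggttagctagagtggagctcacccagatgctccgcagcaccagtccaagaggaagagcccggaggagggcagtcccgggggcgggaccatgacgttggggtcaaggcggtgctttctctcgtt
Pdk1, chr2:71872974-71873223, plus strand: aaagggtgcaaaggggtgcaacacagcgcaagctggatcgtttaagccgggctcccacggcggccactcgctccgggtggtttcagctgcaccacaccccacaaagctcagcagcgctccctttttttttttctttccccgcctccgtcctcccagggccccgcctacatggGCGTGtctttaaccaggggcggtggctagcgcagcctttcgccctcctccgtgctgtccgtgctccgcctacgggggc
Aldoc, chr11:78322823-78323072, plus strand: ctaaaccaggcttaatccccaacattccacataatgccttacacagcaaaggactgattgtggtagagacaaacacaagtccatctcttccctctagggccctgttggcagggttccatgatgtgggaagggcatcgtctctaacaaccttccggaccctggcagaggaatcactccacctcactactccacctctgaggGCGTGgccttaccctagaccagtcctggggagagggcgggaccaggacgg
Bnip3, chr7:138909507-138909756, minus strand: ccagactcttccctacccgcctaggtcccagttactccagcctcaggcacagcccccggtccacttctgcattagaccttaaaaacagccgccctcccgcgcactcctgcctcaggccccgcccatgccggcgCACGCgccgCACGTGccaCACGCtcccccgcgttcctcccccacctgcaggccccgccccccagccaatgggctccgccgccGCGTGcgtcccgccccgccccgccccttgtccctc
A core was found in 5 of the 6 windows. Bnip3 had the most, with 5 matches, of which 2 overlap in the palindrome CACGTG, a motif that is also an E-box. Ddit4 had 2 matches, at 187 and 115 bases before the start. Egln3, Pdk1 and Aldoc had 1 match each, and Eno2 had none in this window. At the second start, not printed, Aldoc had 1 match and Pdk1 had 0. Over all 32851 RefSeq windows of the same length, 38.6% held at least 1 core, with ACGTG in 16.6% and GCGTG in 28.2%. Windows were found for 39 of the 43 list genes, and 47 of their 61 windows (77%) held a core. Windows of 1 gene can overlap, and a match of 5 letters describes the sequence and is not a site of binding.

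Each difference below is a log2 value of 1 array minus that of another, on the scale on which 1 is a 2-fold difference. For co-injection the mean of both arrays was used. The SD given with a co-injection difference is that of the co-injection pair. It holds no variation of the single array on the other side of the comparison. A gene was called higher or lower past 2-fold, the rule of the study, and with 1 array per condition outside the co-injection pair no test stands behind these calls. The co-injection arrays give the only measure of spread between samples. Over the 40 genes they differed by a median of 0.049 and at most by 0.33, in Pfkfb3, against a median of 0.067 over all genes. The 3 comparisons with parental ESCs share the parental array, and a value that is high or low on that array moves all of them.

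The cell type was checked with marker genes. All 12 ESC markers were above the median of all values on every array, with Pou5f1 (OCT4) between 12.29 and 12.60 and Nanog between 12.22 and 12.94. The heterologous array stood apart from the others. Of 15 fibroblast markers, 10 exceeded their level in parental ESCs by more than 2-fold there. The 15 ranged from Fbln1 at 0.12 to Postn at 3.30 with a median of 1.64, and their summed level (log2) was 13.82 there and 11.88 to 12.42 on the other arrays. Of 7 neural markers, 4 were more than 2-fold higher, and the summed level was 12.69, beside 10.77 in parental ESCs, 11.47 after homologous injection and 11.12 to 11.14 after co-injection. Of the 12 ESC markers, 5 were more than 2-fold lower there, beside 1 after homologous injection and 0 after co-injection. Most were below parental ESCs in every comparison: 11 after heterologous, 10 after homologous and 10 after co-injection. Their median differences were -0.66, -0.40 and -0.22 in that order.
The summed level of the 7 macrophage markers ran from 9.54 to 10.33 and that of the 7 endothelial markers from 10.20 to 10.81, and the 2 of 5 red cell markers that were measured lay under the median of all values on every array. In such bulk samples, fewer cells of a type and less RNA per cell cannot be told apart. The part of fibroblast and neural markers in the values of the genes below was not tested.

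Set against parental ESCs, 6 of the 40 genes were higher by more than 2-fold after homologous injection and 0 were lower by as much. Over all genes, 1.45% were more than 2-fold higher and 1.60% lower. The median difference of the 40 genes was 0.21, with 29 above 0 and 9 below, beside a median of -0.01 and 40.4% above 0 over all genes. After heterologous injection, 2 were higher and 4 were lower, beside 3.98% and 1.95% of all genes, and the median was 0.00061, close to that of all genes (-0.04). Co-injection left 2 genes more than 2-fold higher and 0 lower, beside 0.647% and 1.44%, with a median of 0.05 beside 0.04 over all genes. The shares were larger among genes with a mean above the median of all values. There, 2.20% were higher and 1.97% lower after homologous, 5.09% and 2.61% after heterologous, and 1.01% and 1.84% after co-injection.
In all, 11 genes were past 2-fold in at least 1 of these comparisons with parental ESCs. Of the other 29, 14 lay within 0.25 of parental ESCs in all 3. The share of all genes past 2-fold in at least 1 of the 3 was not computed, so the 11 are only a choice of genes to describe.

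**Figure D1:**
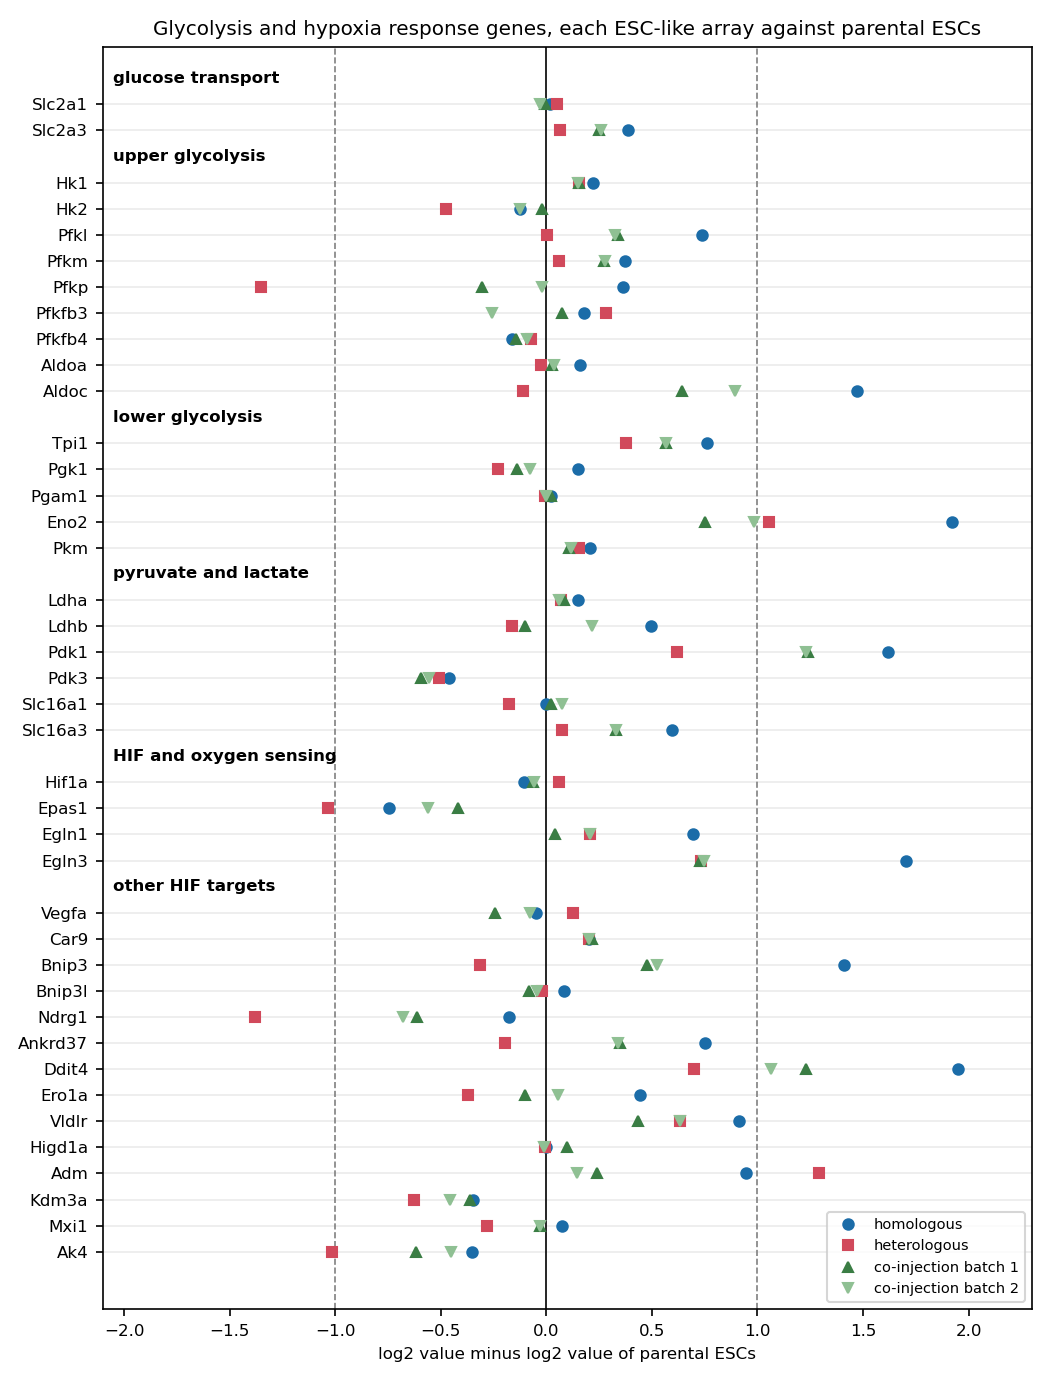
Log2 value of each ESC-like array minus that of parental ESCs (x axis) for the 40 measured genes, grouped by role (y axis). Points are single arrays and dashed lines mark 2-fold. Homologous points reach 1.95 (Ddit4), whereas heterologous points reach down to -1.38 (Ndrg1).

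Glucose transporters showed little difference. Slc2a1 (GLUT1), the basal glucose carrier of most cells, had log2 values from 13.10 to 13.18 on the 5 arrays. Slc2a3 (GLUT3), a high-affinity carrier, ranged from 12.74 in parental ESCs to 13.13 after homologous injection.
Neither came near 2-fold. They belong to 10 genes whose values were above 12 on every array, with the highest value of any probe set at 13.97. The largest difference from parental ESCs among these 10 was 0.76, that of the triosephosphate isomerase gene Tpi1.

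In the upper part of glycolysis, Pfkp and Aldoc stood apart and in different ways. Pfkp, the platelet-type phosphofructokinase, had log2 values of 10.48 in parental ESCs, 10.84 after homologous injection, 9.13 after heterologous injection, and 10.18 and 10.46 in the co-injection arrays. The heterologous array was thus the low one, 2.55-fold under parental ESCs and 3.28-fold under the homologous array. Aldoc, the brain-type aldolase, had 8.38 in parental ESCs, 9.85 after homologous injection, 8.27 after heterologous injection, and 9.02 and 9.27 after co-injection. Here the homologous array was 2.78-fold above parental ESCs, the co-injection arrays lay above them by 0.77 ± 0.18 (SD, n = 2), and the heterologous array was not above them.
The liver and muscle phosphofructokinases were highest after homologous injection and did not pass 2-fold. Pfkl differed from parental ESCs by 0.74 after homologous, 0.01 after heterologous and 0.33 after co-injection, and Pfkm by 0.37, 0.06 and 0.28. Hk1 and Aldoa, which encode a hexokinase and the muscle-type aldolase, stayed within 0.25 of parental ESCs. A second, dimmer probe set of Hk1 differed by 0.36 after homologous injection. Hk2, the inducible hexokinase, was lowest after heterologous injection, at -0.48. The regulators of fructose 2,6-bisphosphate, Pfkfb3 and Pfkfb4, were furthest from parental ESCs at 0.28 after heterologous and -0.16 after homologous injection.

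In the lower part, Eno2 was the one gene past 2-fold. Eno2 encodes the neuronal (gamma) enolase. Its log2 values were 7.54 in parental ESCs, 9.46 after homologous injection, 8.59 after heterologous injection, and 8.29 and 8.52 after co-injection. Of the 7 neural markers, 2 were more than 2-fold above parental ESCs after homologous and 4 after heterologous injection, and their median differences were 0.27 and 1.27. Highest in both were Fabp7 (2.33 and 4.65) and Nes (1.28 and 2.52). Lowest in both were the neuronal markers Map2 (0.07 and 0.07) and Tubb3 (0.02 and -0.44). The part of neural cells in the Eno2 values was not tested. All 4 ESC-like arrays were above parental ESCs for Eno2, by 3.79-fold after homologous and 2.08-fold after heterologous injection, and by 0.87 ± 0.16 (log2, SD, n = 2) after co-injection. The difference of the co-injection arrays was thus under 2-fold.
Tpi1 was higher by 0.76, 0.38 and 0.57 after homologous, heterologous and co-injection. Pgk1, Pgam1 and Pkm, which encode phosphoglycerate kinase, phosphoglycerate mutase and pyruvate kinase, lay within 0.25 of parental ESCs in all of these. Pgk1 lies on the X chromosome, where the 359 genes above the median of all values had a median difference of -0.44 after homologous, -0.47 after heterologous and -0.50 after co-injection. For Pgam1 and for Pgk1, the array has 3 probe sets each, of which 2 gave identical values on every array. The probe set used for Pgk1 is one of its identical pair. Near-identical gene copies can share probes, and whether the probe sets used for Pgam1, Pgk1, Hk1, Ak4, Bnip3 and Bnip3l, which have several each, read such copies was not tested.

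At the branch point of pyruvate, Pdk1 differed most. Pdk1 encodes a kinase that switches off pyruvate dehydrogenase and so keeps pyruvate from mitochondrial oxidation. It had log2 values of 9.73 in parental ESCs, 11.34 after homologous injection, 10.35 after heterologous injection, and 10.97 and 10.96 after co-injection. All ESC-like arrays were above parental ESCs, homologous by 3.07-fold and co-injection by 1.23 ± 0.01 (SD, n = 2), whereas the heterologous difference of 0.62 was under 2-fold.
The X-linked kinase Pdk3 was lower in all 3 comparisons, with differences of -0.46, -0.51 and -0.57, beside the median of X-linked genes given above. Ldha, the main lactate dehydrogenase subunit of glycolytic cells, lay within 0.15 of parental ESCs. Ldhb, the subunit of oxidative tissues, was 0.50 higher after homologous injection. Of the lactate carriers, Slc16a3 (MCT4) was higher by 0.59 after homologous and 0.33 after co-injection, and Slc16a1 (MCT1) was furthest from parental ESCs after heterologous injection, at -0.17.

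Among the genes of HIF and oxygen sensing, the RNA of Hif1a barely differed while that of Egln3 and Epas1 did. Hif1a had log2 values of 11.53 in parental ESCs, 11.42 after homologous injection, 11.58 after heterologous injection, and 11.46 and 11.47 after co-injection. HIF1A is controlled mainly through the stability of the protein, which the array does not measure. Epas1 had 11.80 in parental ESCs, 11.06 after homologous injection, 10.77 after heterologous injection, and 11.38 and 11.24 after co-injection.
Parental ESCs were thus the highest for Epas1, and the heterologous array was 2.05-fold lower. Egln3 had 10.41 in parental ESCs, 12.12 after homologous injection, 11.14 after heterologous injection, and 11.14 and 11.16 after co-injection. The homologous array was 3.26-fold above parental ESCs, and the other 3 ESC-like arrays lay together, from 0.73 to 0.74 above them. Egln1 had 9.61 in parental ESCs, 10.31 after homologous injection, 9.82 after heterologous injection, and 9.65 and 9.82 after co-injection.
None of the Egln1 differences passed 2-fold, and that of the homologous array, 0.70, was the largest. Hif1a and Egln3 lie on chromosome 12, where the 421 genes above the median of all values had a median difference of 0.24 after heterologous injection, 0.01 after homologous injection and 0.03 after co-injection. Egln1 lies on chromosome 8, as does Ankrd37 below, where the median of 653 such genes was 0.26 after homologous, 0.04 after heterologous and 0.23 after co-injection, and -0.20 between heterologous and homologous cells.

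Of the 14 other HIF targets, Ddit4 and Bnip3 were past 2-fold after homologous injection. Ddit4 (REDD1), an inhibitor of mTORC1 signalling, had log2 values of 8.87 in parental ESCs, 10.82 after homologous injection, 9.57 after heterologous injection, and 10.10 and 9.94 after co-injection. The homologous array was 3.87-fold above parental ESCs, the furthest of the 40 genes, co-injection was 1.15 ± 0.12 (SD, n = 2) above them, and the heterologous array was 0.70 above them. Bnip3, a receptor for the removal of mitochondria, had 10.43 in parental ESCs, 11.84 after homologous injection, 10.11 after heterologous injection, and 10.91 and 10.95 after co-injection.
The heterologous array was the only one below parental ESCs for Bnip3, at -0.32, while the homologous array was 2.66-fold above them. A second probe set of Bnip3 gave 1.31 for the homologous and -0.48 for the heterologous array. Its paralogue Bnip3l (NIX) stayed within 0.09 of parental ESCs.
Ndrg1 and Ak4 were lowest after heterologous injection. Ndrg1, a stress-responsive gene of cell differentiation, had 10.17 in parental ESCs, 10.00 after homologous injection, 8.79 after heterologous injection, and 9.56 and 9.49 after co-injection. All 4 ESC-like arrays were below parental ESCs, the heterologous one by 2.61-fold. Ak4, a mitochondrial adenylate kinase, had 12.01 in parental ESCs, 11.66 after homologous injection, 10.99 after heterologous injection, and 11.40 and 11.56 after co-injection.
The heterologous difference of Ak4, -1.02, was just past 2-fold, and a second probe set of the gene gave -0.76. Adm, which encodes the vasodilator peptide adrenomedullin, had 6.81 in parental ESCs, 7.76 after homologous injection, 8.11 after heterologous injection, and 7.05 and 6.96 after co-injection. It was 2.45-fold higher in the heterologous array than in parental ESCs, and its mean over the arrays was under the median of all values, 7.49.
The remaining targets did not pass 2-fold. Ankrd37 and Vldlr were higher by 0.75 and 0.91 after homologous injection, and Ero1a, an oxidase of the endoplasmic reticulum, by 0.44. Kdm3a, a histone demethylase, differed by -0.35, -0.63 and -0.41 after homologous, heterologous and co-injection. Vegfa and Car9, the vessel growth factor and the carbonic anhydrase often taken as signs of hypoxia, lay within 0.25 of parental ESCs, as did Higd1a, and Mxi1 was lowest after heterologous injection, at -0.28. Car9, Higd1a, Adm and Pfkfb4 were the 4 genes with a mean under 7.49.

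**Figure D2:**
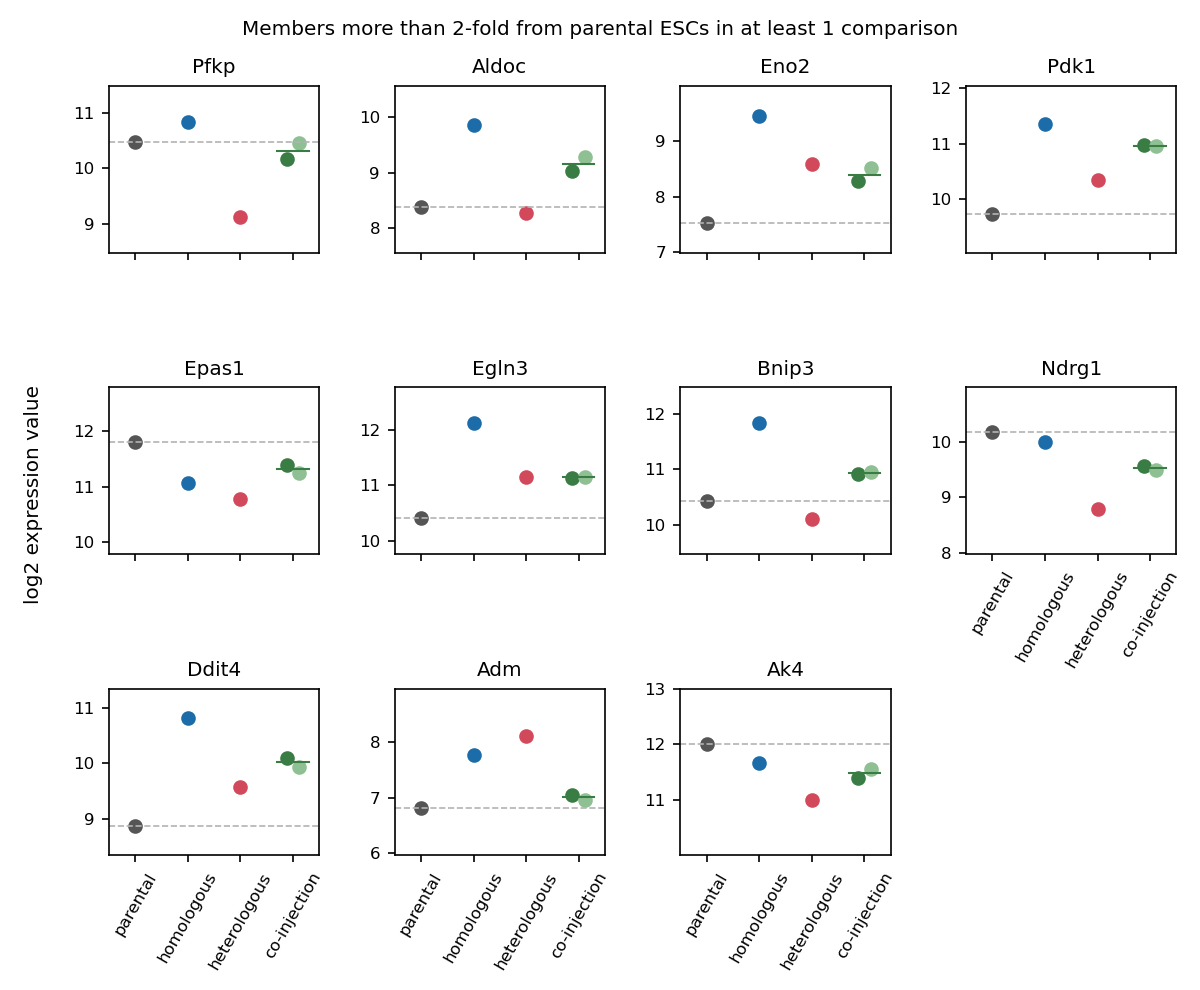
Log2 expression value (y axis) on each of the 5 arrays (x axis) for the 11 genes past 2-fold in a comparison with parental ESCs. The bar is the mean of the co-injection pair and the dashed line is the parental value. Homologous values are highest in 7 panels and heterologous values lowest in 6. These counts are partly set by the choice of genes past 2-fold.

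Heterologous and homologous ESC-like cells were compared directly, as both came from ESCs injected alone. Of the 40 genes, 0 were more than 2-fold higher and 5 were more than 2-fold lower in the heterologous array, beside 2.41% and 0.647% of all genes. Among genes with a mean above the median of all values, these shares were 2.89% and 1.02%. The 5 lower genes were Bnip3 (-1.73), Pfkp (-1.72), Aldoc (-1.58), Ddit4 (-1.25) and Ndrg1 (-1.21). Pdk1 (-0.997), Egln3 (-0.97) and Ankrd37 (-0.95) lay just inside 2-fold.
The median difference was -0.32, with 33 of the 40 below 0, where all genes had a median of -0.01 and 52.1% below 0. Adm was the highest, at 0.34. These values do not add to those against parental ESCs as separate evidence, since the same arrays enter both.

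**Figure D3:**
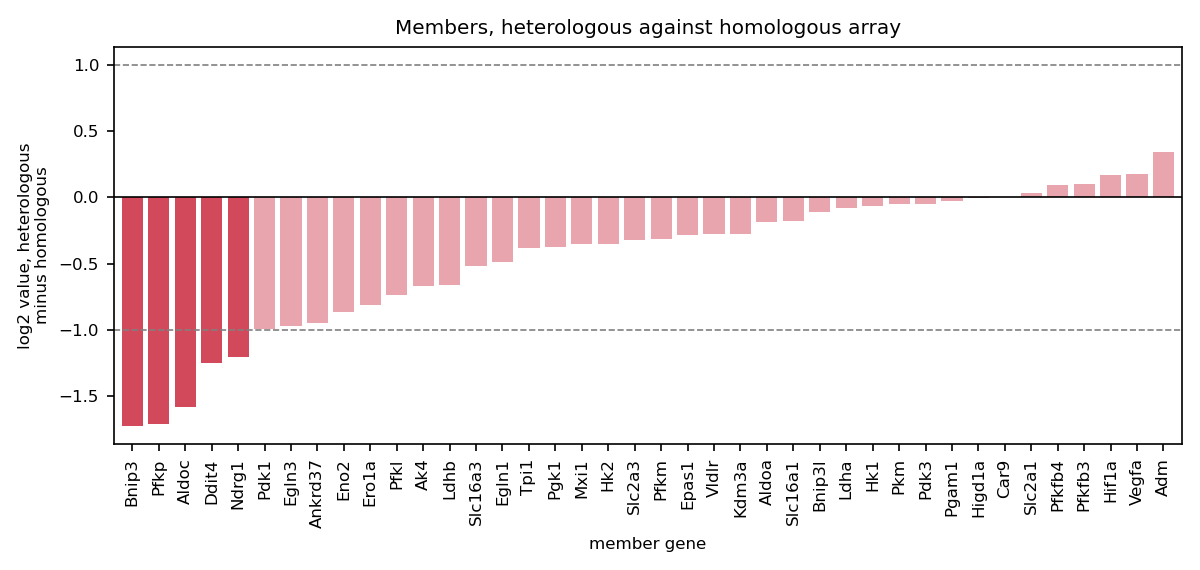
Log2 value of the heterologous array minus that of the homologous array (y axis) for the 40 genes in order of the difference (x axis). Dark bars are past 2-fold (dashed lines). The 5 dark bars are all negative, from -1.73 to -1.21.

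Co-injection and heterologous injection used the same recipient strain. Between them, 1 gene was more than 2-fold higher and 1 lower after co-injection, beside 0.361% and 2.99% of all genes. Among genes with a mean above the median of all values, these shares were 0.586% and 3.67%. Pfkp was higher by 1.19 ± 0.20 (SD, n = 2) and Adm differed by -1.10 ± 0.06. Aldoc (0.88), Bnip3 (0.82) and Ndrg1 (0.74) were higher after co-injection and did not pass 2-fold. The heterologous side is 1 array from a single teratoma, so the added fibroblasts and the individual graft cannot be told apart. The median difference was 0.15, beside 0.07 over all genes.
Taking the order of the arrays gene by gene, a description chosen after the values were seen, the homologous array was the highest of the 5 in 25 of the 40 genes, beside 13.5% of all genes. Of these 25, 11 led the next array by more than 0.33, the largest gap between the co-injection arrays, and 7 led by less than 0.1. The largest leads were those of Egln3 (0.96), Bnip3 (0.88) and Eno2 (0.87). All 5 measured genes of lower glycolysis were among the 25, though Pgam1 led by only 0.00052 and Pkm by 0.05, beside a median gap of 0.049 between the co-injection arrays.
The heterologous array was lowest in 16 of the 40, beside 36.6% of all genes. Both co-injection arrays lay below the homologous and above the heterologous array in 20 of the 40, beside 10.8%. Among the 11600 genes with a mean above the median of all values these shares were 19.4%, 32.9% and 16.0%, in the same order. With the heterologous array left out, the homologous array was the highest of the remaining 4 in 28 of the 40 genes, beside 20.3% of all genes.

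**Figure D4:**
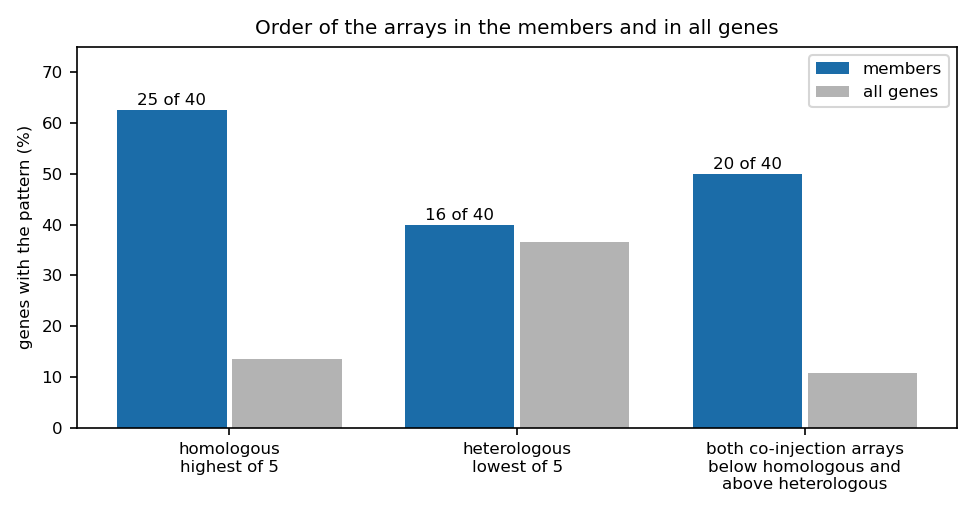
Share of genes, in percent (y axis), with each order of the 5 arrays (x axis), for the 40 list genes and for all 19938 genes. Homologous was highest in 25 of 40 genes beside 13.5% of all genes, whereas the share with heterologous lowest, 16 of 40, was near that of all genes, 36.6%.

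A second list held 96 other genes of the same pathways, of which 90 were measured. After homologous injection 6 were more than 2-fold higher and 2 lower, after heterologous injection 5 and 1, and after co-injection 3 and 2. For the 90 genes these are to be read beside the shares of all genes, 1.45% and 1.60%, 3.98% and 1.95%, and 0.647% and 1.44%. The median difference of the 90 genes was 0.14, 0.05 and 0.07 in these comparisons, beside -0.01, -0.04 and 0.04 over all genes. Between heterologous and homologous cells, 4 of the 90 were higher in the heterologous array (Edn1, Igfbp3, Lox and Plin2) and 0 were lower, beside 2.41% and 0.647% of all genes, with a median of -0.05. This is unlike the 40 genes, of which 0 were higher and 5 lower, and the difference between the lists was not tested. None of the 14 other glucose transport and glycolysis genes, 7 gluconeogenesis genes and 8 glycogen genes passed 2-fold against parental ESCs. At the shares of all genes given above, lists this short would hold few such genes.
Of the higher genes, Fam162a, a mitochondrial HIF target, was past 2-fold in all 3 comparisons, by 1.57, 1.33 and 1.25 ± 0.06 (SD, n = 2). Bhlhe40 (DEC1), a transcriptional repressor induced by HIF1A, was highest after homologous injection, with 1.86 there, 0.91 after heterologous and 0.91 after co-injection. Car12, a carbonic anhydrase, was higher by 1.56, 0.99 and 1.29.
Ccng2, an inhibitor of the cell cycle, was higher by 1.55, 0.89 and 0.57 after homologous, heterologous and co-injection. In the same order, Hif3a, a HIF subunit, was higher by 1.01, 0.55 and 0.64. The syndecan gene Sdc4 was higher by 1.02, 0.93 and 1.01. Besides Fam162a, the heterologous array had 4 genes of this list past 2-fold above parental ESCs, on the array where 10 of 15 fibroblast markers were also higher, and the part of those markers was not tested. Lox, a collagen cross-linking enzyme, was higher by 2.76 there and differed by -2.04 after co-injection, and Plod2, a collagen lysyl hydroxylase, was higher by 1.03. Igfbp3, a binding protein of insulin-like growth factors, was higher by 1.39 and Plin2, a lipid droplet coat gene, by 1.37.
Tktl1, an X-linked gene related to transketolase, differed by -2.59, -2.18 and -2.48, further than the median of X-linked genes. Mpc1, a subunit of the mitochondrial pyruvate carrier, differed by -1.14 after homologous, -0.65 after heterologous and -0.95 after co-injection.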

How the data were processed

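Total RNA of 5 cell populations was measured on Affymetrix GeneChip Mouse Gene 1.0 ST arrays. Per the methods, the authors extracted probe intensities with GCOS, applied RMA (robust multi-array average) with quantile normalization, and deposited log2 values of 35556 probe sets. The sources used here give neither versions nor the genome build of the array table. These log2 values were used without further normalization. Quantile normalization gives all arrays the same distribution (array medians 7.48 to 7.54), so that a shift common to most genes would not be seen, and the number of arrays limits the precision.

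Gene names of probe sets come from GEO's platform annotation, with symbols updated to RefSeq (GRCm38.p6) through Entrez IDs: 21789 had exactly 1 symbol, 1621 several and 12146 none. Genes were taken from the first kind, by their brightest probe set (9 of the 40 list genes had several). The genes and lists were chosen with earlier results of these data known. Samples were grouped by the labels. Genes with values on every array are those past 2-fold against parental ESCs, with HIF1A, EPAS1 and the EGLN genes whatever their difference; of the other pathway list, those past 2-fold were named.

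The fold rule (2-fold) was tested on simulated data. The simulated noise was taken from the co-injection pair only, so it cannot show how the single arrays of the other conditions vary. Alternatives were 1.5-fold and 3-fold, dim genes left out, cyclic loess, centring on the median of named genes, the mean of all probe sets of a gene, X-linked genes left out, each co-injection array left out, and limma on all 5 arrays. Leaving out the heterologous array and a background of brighter genes were chosen after seeing the data. Python 3.11.15, numpy 2.4.6, pandas 2.3.3, matplotlib 3.10.9, R 4.3.3 and limma 3.58.1 were used.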

Additional observations from a re-analysis of the deposited data

Results flagged for a closer look

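In 3 of the 40 genes the homologous array lay above and the heterologous array below parental ESCs, more than 2-fold apart, as in 0.436% of all genes. The homologous array lay above the heterologous array by 1.73 in Bnip3, 1.72 in Pfkp and 1.58 in Aldoc, as in the direct comparison above. Homologous and heterologous differences from parental ESCs were 1.41 and -0.32 in Bnip3, 0.36 and -1.35 in Pfkp, and 1.47 and -0.11 in Aldoc. For Aldoc, the -0.11 was smaller than the gap of 0.25 between its co-injection arrays. Each side is 1 array, and the difference between the injections was not tested.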

How the results depend on the processing

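Counts depended on the fold threshold. Shares of all genes at 1.5-fold and 3-fold were not computed, so the counts at these thresholds stand without a background. At 1.5-fold, 13 of the 40 genes were higher and 1 lower after homologous injection, 6 were higher after heterologous injection, 5 were higher and 1 lower after co-injection, 13 were lower in heterologous than in homologous cells, and 5 were higher in co-injection than in heterologous cells. At 3-fold, 0 were higher and 0 lower after heterologous injection, 0 were higher after co-injection, 2 were lower in heterologous than in homologous cells, and 0 were higher and 0 lower in co-injection than in heterologous cells. By limma, 0 genes passed an adjusted p of 0.05 in any of the 5 comparisons, as did 0 probe sets of the whole array, and 21, 19, 18, 20 and 16 of the 40 genes had an unadjusted p under 0.05, beside 26.8%, 31.3%, 26%, 24.5% and 29.7% of all genes. That fit rests on 1 residual degree of freedom, and the single arrays are assumed to vary like the co-injection pair.

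Leaving out the dim genes removed Adm, which left 1 gene higher after heterologous injection and 0 lower in co-injection than in heterologous cells, and gave medians of 0.21 (homologous against parental), -0.35 (heterologous against homologous) and 0.20 (co-injection against heterologous). Under cyclic loess, the medians were 0.20, 0.0479 and 0.0454 against parental ESCs after homologous, heterologous and co-injection, -0.29 for heterologous against homologous and 0.12 for co-injection against heterologous. With arrays centred on the median of named genes, they were 0.18, -0.051, 0.0205, -0.34 and 0.17 in the same order, so that the heterologous median, near 0 as reported, changed sign. With the mean of all probe sets of a gene, the heterologous median was 0.0096, that of co-injection 0.0408 and that of co-injection against heterologous 0.12. Without the X-linked genes the medians were 0.21, 0.0277 and 0.0654 against parental ESCs and 0.19 for co-injection against heterologous.

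Without each co-injection array in turn, the co-injection median against parental ESCs was 0.0574 to 0.0667 and against heterologous cells 0.0939 to 0.16, and 1 to 2 genes were higher in co-injection than in heterologous cells; without replicate 1, the second was Aldoc, at 1.01. The causes of these shifts were not tested. Of 71 recomputed differences of single genes past 2-fold, 0 reversed and 69 stayed past 2-fold. The exceptions were both Ak4 after heterologous injection, at -0.99 under cyclic loess and -0.89 with the mean of probe sets. A different background correction and a slide term were not run, since scanner files were not used here. No paired analysis was possible because the groups compared share fewer than 2 replicate numbers.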
